A study of Rattus norvegicus with 2 samples.

Results

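The genes described here encode the proteins of the mitochondrial ribosome. They were taken by symbol, as rows of the protein-coding tables whose name starts with Mrpl or Mrps followed by a digit, and 69 genes of the 13706 listed met this rule. Of these, 41 carry the large subunit name (Mrpl) and 28 the small subunit name (Mrps). All 69 were listed in both libraries, so none had to be set to 0 reads.

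The tables come from the myocardium of spontaneously hypertensive rats, an inbred strain with high blood pressure and an enlarged heart. One group received KXH, the high dose of the herbal Jiangya Kangxian formula (9.6 g/kg), into the stomach and the other received distilled water, both for 12 weeks. Each group is 1 library of total RNA, and whether it holds 1 animal or several is not in the labels, nor is the animals' age or sex. No test between the treatments is therefore possible: "higher" and "lower" describe these 2 libraries, and each ratio has a 95% exact interval that covers counting error only.

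The mitochondrial ribosome translates the few messenger RNAs of the mitochondrial genome, all of which encode core subunits of the respiratory chain and ATP synthase. Its RNAs come from the mitochondrial genome, but each of its proteins is encoded in the nucleus, made in the cytosol and imported. The large subunit forms the peptide bond and leads the new chain to the inner membrane, and the small subunit decodes the messenger RNA. Heart muscle depends on this machine, and inherited faults in Mrpl3, Mrpl44 or Mrps22 are known causes of mitochondrial disease that can include cardiomyopathy.

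The family was slightly higher in the KXH library. The median RPKM ratio (reads per kilobase per 1000000 reads, KXH over water) was 1.05, a log2 ratio of 0.08, against a median log2 ratio of -0.02 over all 10467 genes whose mean level reached 1 RPKM. Of the 69 members, 50 were higher and 19 lower, while 45% of all genes were higher. Short transcripts as a class were also higher in this library, and after subtracting the median of genes of like length the family's median was 0.04. The large and the small subunit differed little, with median log2 ratios of 0.08 and 0.05.

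Nuclear respiratory factor 1 (NRF1) and the ETS factor GABP are textbook activators of nuclear genes for mitochondrial proteins, so the promoters of the family were read for their letters. RefSeq promoters (GRCr8, 250 bases before to 50 after the first listed start of each gene) were found for 54 of the 69 members. The 100 bases just before the start are printed for 7 members, 5′ to 3′, because they hold these letters and include members of high and of low level. Capitals mark NRF1 letters (GCGCATGCG), ETS letters (CCGGAAG) or YY1 letters (AAGATGGC), on either strand.
Mrpl17 (chr1:169575700-169575799, minus strand): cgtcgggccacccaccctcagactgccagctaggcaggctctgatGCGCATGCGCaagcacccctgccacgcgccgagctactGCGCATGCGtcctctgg
Mrpl32 (chr17:55260551-55260650, plus strand): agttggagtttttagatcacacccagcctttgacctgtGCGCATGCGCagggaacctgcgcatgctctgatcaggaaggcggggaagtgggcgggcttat
Mrpl22 (chr10:42845810-42845909, plus strand): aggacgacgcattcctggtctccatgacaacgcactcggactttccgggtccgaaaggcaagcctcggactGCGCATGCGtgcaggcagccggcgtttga
Mrps18b (chr20:2842906-2843005, plus strand): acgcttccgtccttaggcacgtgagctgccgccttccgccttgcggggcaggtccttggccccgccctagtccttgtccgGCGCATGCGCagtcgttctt
Mrpl53 (chr4:117172943-117173042, plus strand): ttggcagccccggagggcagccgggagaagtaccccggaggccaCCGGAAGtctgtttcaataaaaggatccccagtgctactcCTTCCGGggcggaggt
Mrpl36 (chr1:31795122-31795221, minus strand): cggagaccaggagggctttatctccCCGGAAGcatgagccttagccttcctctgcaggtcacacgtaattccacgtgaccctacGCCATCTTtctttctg
Mrpl52 (chr15:31852836-31852935, plus strand): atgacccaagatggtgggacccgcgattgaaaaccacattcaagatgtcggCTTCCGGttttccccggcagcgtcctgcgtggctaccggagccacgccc
The windows of Mrpl17, Mrpl32, Mrpl22 and Mrps18b hold NRF1 letters, with 2 separate matches in Mrpl17. In Mrpl53 and Mrpl52 the capitals are ETS letters, and Mrpl36 holds both ETS and YY1 letters. A full palindrome matches the NRF1 letters on both strands at once, and such overlapping matches count as 1 promoter.

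The letters of NRF1, ETS and YY1 were more frequent in the family's promoters than in those of measured genes or of all genes. YY1 letters were found in 14 of 54 members (25.9%), against 5.81% of the 8043 measured genes with a promoter entry and 3.44% of all 27457 promoters. ETS letters were found in 18 members (33.3%), against 18.03% and 9.22%. NRF1 letters were found in 5 members (9.26%), against 3.37% and 1.66%. At least 1 of the 3 was present in 29 of 54 members (53.7%) and in 24.7% of measured genes. The SP1 letters GGGCGG were found in 28 members (51.9%), fewer than the 63.1% of measured genes and more than the 34.9% of all promoters.

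Both subunits held the letters. ETS letters were in 10 of 33 large and 8 of 21 small subunit promoters, and YY1 letters in 8 of 33 and 6 of 21. The YY1 matches lay mostly after the start, 3 of 14 being upstream, whereas all NRF1 matches lay upstream. Median ratios were close with and without the letters. The median log2 ratio was 0.06 in members with ETS letters and 0.08 in members without, and 0.05 and 0.08 for YY1. For NRF1 it was 0.08 in the 5 members with the letters and 0.06 in the 49 without. For SP1 it was 0.05 in the 28 members with the letters, 17 of them higher, and 0.08 in the 26 without, 21 of them higher. A match is a description of the sequence and not a bound site.

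Levels within the family spanned a wide range, although the ribosome holds its proteins in nearly equal number. The lowest, median and highest member stood at 4.06, 34.1 and 110.3 RPKM in the KXH library and at 4.94, 32.4 and 104 RPKM in the water library. The order was nearly the same in both. Across the 69 genes the levels correlated with a Spearman coefficient of 0.990, a description of genes that share 2 libraries. The plot of levels by subunit shows each member in both libraries.

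**Figure D1:**
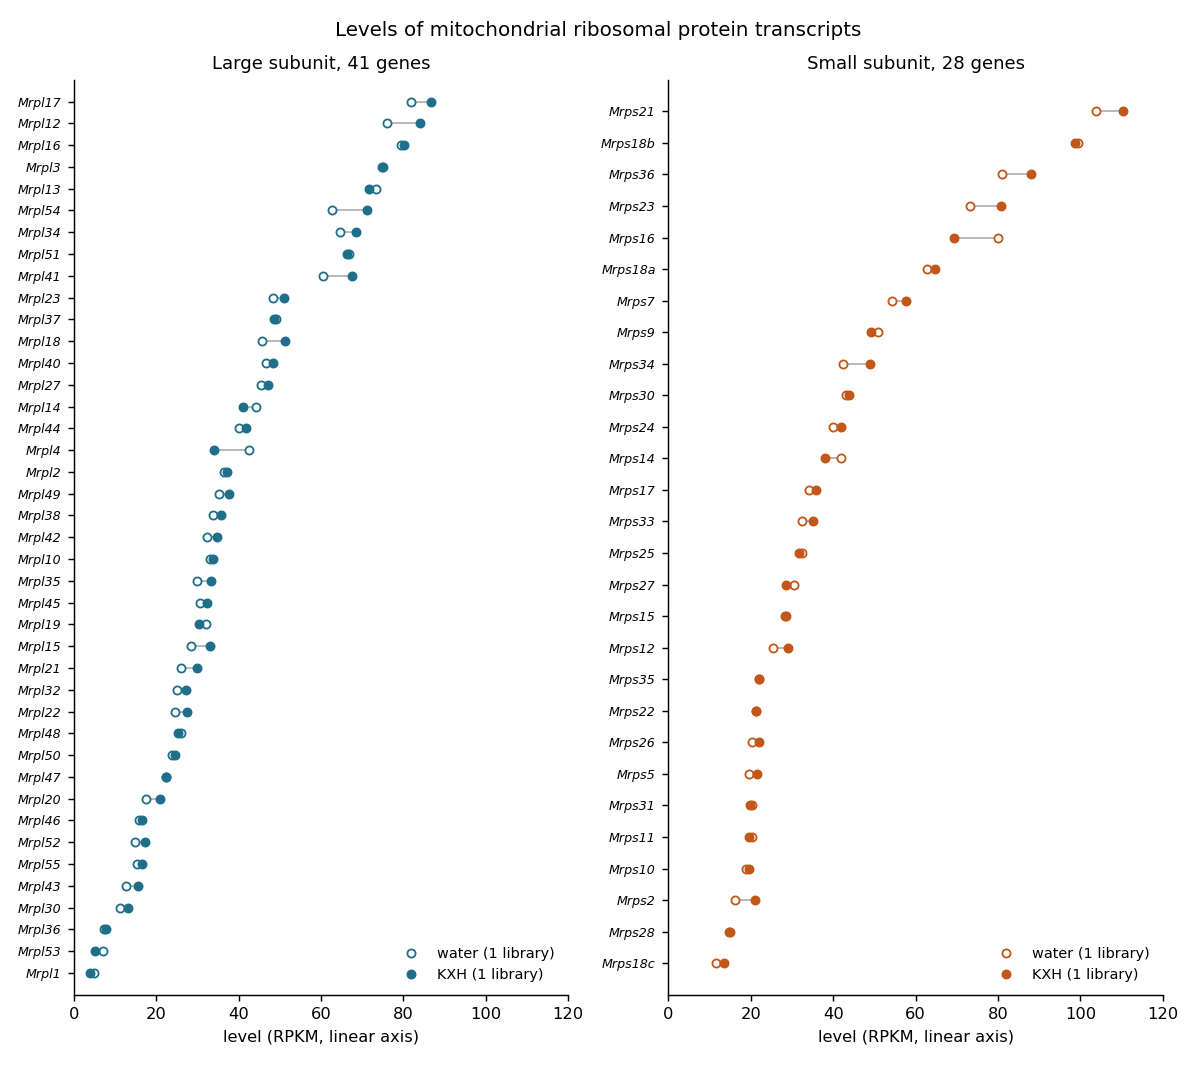
Level of each member in the KXH library (filled) and the water library (open) in RPKM on a linear axis, 1 library each, with 41 large subunit genes on the left and 28 small subunit genes on the right. Mrps21 is the highest gene at 110.3 and 104 RPKM and Mrpl1 the lowest at 4.06 and 4.94 RPKM, and the paired points of most genes lie close together.

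The most abundant transcript was Mrps21, a small subunit protein of a bacterial family, at 110.3 RPKM with KXH and 104 with water. Mrps18b followed at 98.6 and 99.3 RPKM. Mrps36 stood at 87.9 and 80.8 RPKM. Despite its name, the Mrps36 product is known as a subunit of the oxoglutarate dehydrogenase complex of the citric acid cycle rather than a ribosomal protein. Mrpl17 stood at 86.7 and 81.8 RPKM. Mrpl12, the ribosomal stalk protein that also binds the mitochondrial RNA polymerase, stood at 84.1 and 76.1 RPKM.

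At the other end Mrpl1 had 4.06 RPKM with KXH and 4.94 with water, from 62 and 81 reads. Mrpl53 had 5.22 and 7.02 RPKM, from 45 and 65 reads. Mrpl36, one of the smallest ribosomal proteins, had 7.89 and 7.43 RPKM. These 3 genes were the only members with fewer than 200 reads over both libraries. Mrpl30 (13.2 and 11.2 RPKM) and Mrps18c (13.4 and 11.5 RPKM) came next.

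Reads kept only when unique can be lost to near-identical copies, and RefSeq names pseudogenes after 23 of the 69 members. Mrpl30 has the most, with 9, and reads covered 52.7% of its listed length with KXH and 65.4% with water. Mrps28 was covered to 57.3% and 63.4%, with no pseudogene named after it. For 51 members coverage was at least 90% in both libraries. The median log2 ratio was 0.08 over members with a named pseudogene and 0.07 over the other 46, so the shift was of similar size in both.

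The 3 relatives of bacterial protein S18 were expressed at different levels. Mrps18b stood at 98.6 and 99.3 RPKM. Mrps18a, which sits in the large subunit of the mammalian ribosome despite its name, stood at 64.7 RPKM with KXH and 62.8 with water. Mrps18c stood at 13.4 and 11.5 RPKM. All 3 ratios had intervals that include 1.

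Ratios between the libraries were small. For 46 of the 69 members the ratio was within 1.1-fold of 1. Only Mrps2 and Mrpl43 were at least 1.2-fold higher in the KXH library, 2 of 69, against 7.5% of all genes. Mrpl53, Mrpl4 and Mrpl1 were at least 1.2-fold lower, 3 of 69, against 12.1% of all genes. As shares of the family these are 2.90% and 4.35%. The median level of all genes was 12.5 RPKM in the KXH library, against 34.1 for the family. Shares among genes of like level were not computed. Just inside and outside this threshold lay Mrpl1, at 1.22-fold lower, and Mrpl20, at 1.198-fold higher.

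The counting interval lay wholly above 1 for 9 members, against 11.2% of all genes, and wholly below 1 for 2 members, against 16.3%. As a share of 69 these are 13.0% and 2.90%. The interval of all other members included 1, so no difference was detectable for them at this depth. With a 99% interval the counts were 4 and 1, and relative to genes of the same length they were 6 and 3. The shares of all genes were not computed for these settings.

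**Figure D2:**
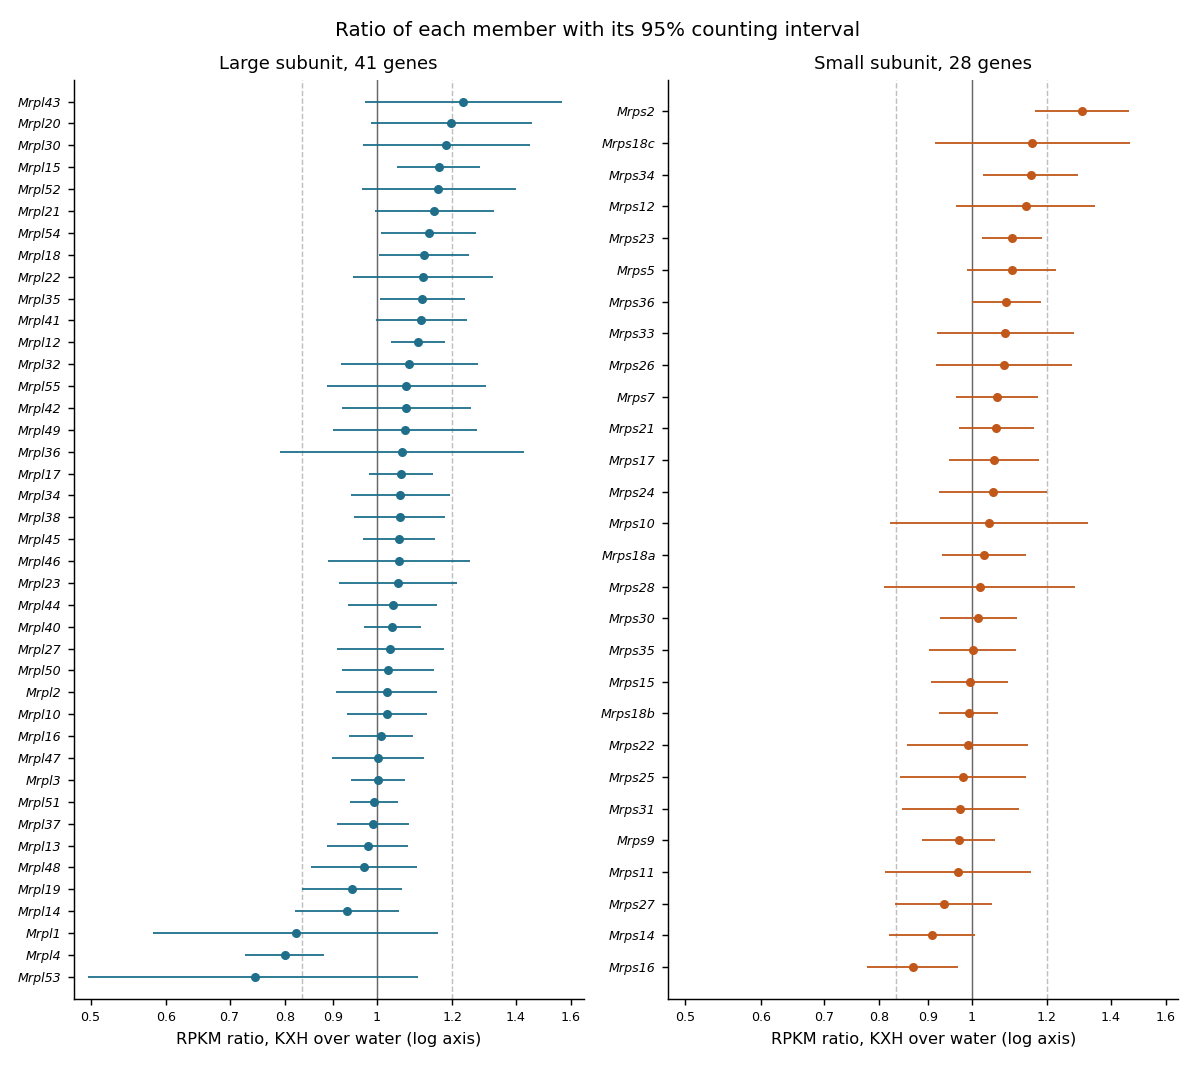
RPKM ratio of KXH over water for each member on a log axis, with bars for the 95% exact counting interval, large subunit on the left and small subunit on the right; dashed lines mark 1.2-fold in each direction. Most points lie slightly to the right of 1 with bars that cross it, Mrps2 is farthest right at 1.31, and Mrpl53, Mrpl1 and Mrpl4 lie farthest left.

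Among large subunit proteins, the clearest difference was a lower one. Mrpl4, whose bacterial relative reaches into the peptide exit tunnel, stood at 34.1 RPKM with KXH and 42.6 with water (752 and 1009 reads), 1.25-fold lower (1.14 to 1.37). Mrpl53 had a ratio of 0.744 (0.497 to 1.104) and Mrpl1 one of 0.822 (0.581 to 1.16), both from few reads and with intervals that include 1. Mrpl14 and Mrpl19 were also among the 8 lowest members with at least 200 reads, at 0.931 and 0.942, with intervals that include 1.

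Among the 32 higher large subunit members, 5 had an interval above 1. Mrpl15 stood at 33.0 against 28.4 RPKM, 1.16-fold higher (1.05 to 1.28). Mrpl12 was 1.11-fold higher (1.04 to 1.18), while Mrpl10, which anchors the stalk that Mrpl12 forms, had a ratio of 1.02 (0.929 to 1.13). Mrpl54, Mrpl18 and Mrpl35 were 1.13-fold (1.01 to 1.27), 1.12-fold (1.00 to 1.25) and 1.12-fold (1.01 to 1.24) higher. Mrpl43 (1.23, 0.973 to 1.56), Mrpl20 (1.198, 0.985 to 1.46), Mrpl30 (1.18, 0.966 to 1.45) and Mrpl52 (1.16, 0.963 to 1.399) had intervals that include 1.

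Other proteins along the path of the new chain had ratios of 1.00 or above. Mrpl3, whose bacterial relative lies near the site of peptide bond formation, stood at 74.98 and 74.8 RPKM with a ratio of 1.00 (0.938 to 1.07). Mrpl22 (1.12, 0.943 to 1.32), Mrpl23 (1.05, 0.912 to 1.21) and Mrpl45, which holds the ribosome to the inner membrane (1.06, 0.966 to 1.15), belong to the tunnel and its exit. Mrpl44 and Mrpl41 had ratios of 1.04 (0.933 to 1.16) and 1.11 (0.998 to 1.24). None of these intervals excluded 1. Mrpl11 and Mrpl24 were listed under these symbols in neither library, so no value can be given for them.

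In the small subunit Mrps2 stood farthest from 1 and had the highest ratio of the family. It was at 20.9 RPKM with KXH and 16.0 with water (677 and 557 reads), 1.31-fold higher (1.17 to 1.46). Mrps34, a mitochondria-specific protein needed for a stable small subunit, was 1.15-fold higher (1.03 to 1.29), at 49.0 against 42.4 RPKM. Mrps23 was 1.103-fold higher (1.02 to 1.19) and Mrps36 1.09-fold higher (1.0005 to 1.18).

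Mrps16 was the small subunit member with an interval below 1. It stood at 69.3 against 79.9 RPKM (591 and 732 reads), 1.15-fold lower (1.03 to 1.29). RefSeq names 2 pseudogenes after it. Mrps14 had a ratio of 0.909 (0.819 to 1.01), and Mrps27, Mrps9 and Mrps11, the other small subunit genes among the 8 lowest, had ratios between 0.935 and 0.969 with intervals that include 1.

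Other small subunit proteins of known place lay between these. Mrps12, whose bacterial relative lines the decoding site, stood at 29.0 and 25.4 RPKM with a ratio of 1.14 (0.964 to 1.35). Mrps5 had a ratio of 1.101 (0.989 to 1.23) and Mrps7 one of 1.06 (0.964 to 1.17). Mrps22 stood at 21.1 and 21.4 RPKM with a ratio of 0.990 (0.855 to 1.15). Mrps30, which is part of the large subunit in the mammalian structure, had a ratio of 1.02 (0.926 to 1.12).

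The 2 subunits were then compared as sets. In the large subunit 32 of 41 genes were higher and the summed reads were 26857 with KXH and 27848 with water, a ratio of 1.04 (1.02 to 1.05) per table total. In the small subunit 18 of 28 genes were higher and the summed reads were 17535 and 18217, a ratio of 1.03 (1.01 to 1.06). These shares were 78.0% and 64.3%, against 54.7% and 55.0% of all genes of like length. The summed ratios were not adjusted for length. The median log2 ratio of the large subunit exceeded that of the small subunit by 0.02. Counting Mrps30 and Mrps18a with the large subunit, as in the structure, left a difference of 0.007, with Mrps36 kept in the small subunit. Leaving out only Mrps36, a step not planned beforehand, gave 0.03. Levels were alike as well, with medians of 34.1 and 33.0 RPKM in the large and 33.4 and 32.4 RPKM in the small subunit.

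Members of families shared with bacteria and members found only in mitochondria also had like ratios. Over 42 members of bacterial families the median log2 ratio was 0.07, and over 27 mitochondria-specific members it was 0.08. This grouping was made after the values were seen. Within the large subunit the medians were 0.08 and 0.08, and within the small subunit 0.06 and 0.02.

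Length was the control for these values. The members' listed length ran from 501 to 2402 bases with a median of 998, against a median of 2137 over all genes. The median log2 ratio of all genes went from 0.04 in the shortest of 10 classes of length (up to 998 bases) to -0.07 in the longest, and 59.8% and 29.6% of genes were higher there. Of the 69 members, 35 fell in the shortest class, with 29 of them higher and a median of 0.10. In the following classes, in order of length, 8 of 14, 2 of 7, 5 of 5, 1 of 1 and 5 of 7 were higher. The shares of all genes there were 53.5%, 50.2%, 47.6%, 45.0% and 43.5%. In the class with 2 of 7 (1327 to 1573 bases) the members' median was -0.04, against 0.001 for all genes. Had members been higher as often as all genes of their own class, 54.8% would have been higher, against 72.5% observed.

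Subtracting from each member the median of all genes in its class left a median log2 ratio of 0.04 in place of 0.08, with 49 of 69 members above 0. It left 0.05 in the large and 0.03 in the small subunit, a difference of 0.03. The median lengths of the large and small subunit genes were 1061 and 983 bases. In 3 sets of 23 members by length, the median log2 ratio was 0.09 in the shortest (501 to 812 bases), 0.08 in the middle and 0.04 in the longest (1294 to 2402 bases). After the subtraction it was 0.04 in each set.

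The counting intervals were shifted in the same way. Of the 69 members 6 then lay wholly above their class (Mrps2, Mrpl12, Mrpl15, Mrpl35, Mrps23 and Mrps5) and 3 wholly below it (Mrpl4, Mrps16 and Mrps14), in place of 9 and 2. Mrps34, Mrpl54, Mrpl18 and Mrps36, whose unadjusted intervals lay above 1, had shifted intervals that include their class median. The share of all genes wholly above or below their class was not computed, so the counts of 6 and 3 have no background beside them.

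**Figure D3:**
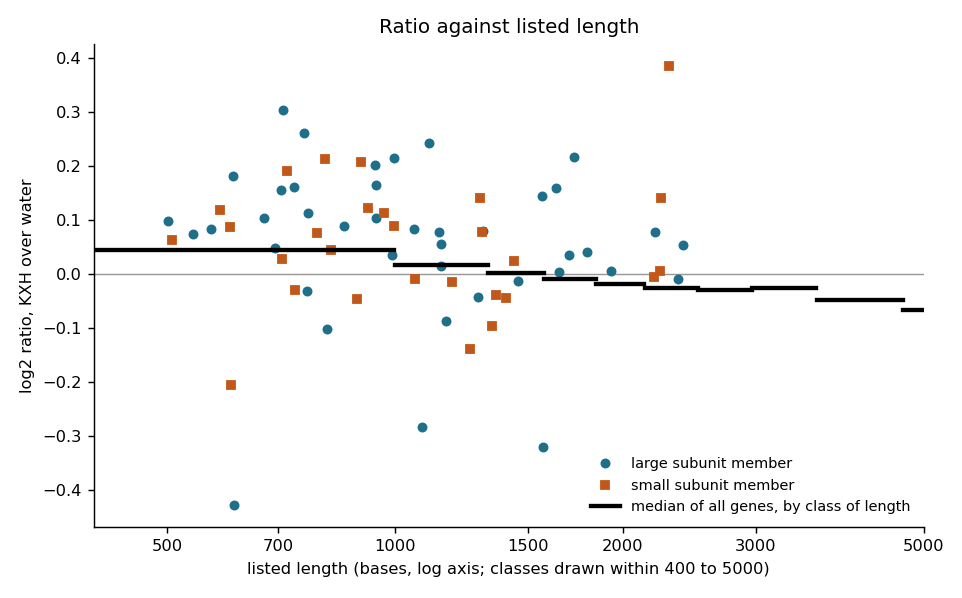
Log2 ratio of KXH over water against listed length in bases on a log axis for the 41 large subunit members (circles) and 28 small subunit members (squares); black bars are the median of all genes in each of 10 classes of length. The bars go from 0.04 in the shortest class to -0.07 in the longest, and most members lie above the bar of their class, with Mrpl53, Mrpl4 and Mrpl1 well below.

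The members farthest from 1 were of different lengths. Mrps2 has a listed length of 2302 bases, and its length-adjusted log2 ratio was 0.41. Mrpl4, at 1570 bases, had an adjusted value of -0.32 and Mrps16, at 607 bases, one of -0.25. Mrpl43 and Mrpl20 are short, at 711 and 759 bases, and their adjusted values were 0.26 and 0.22. Across the 69 members length and log2 ratio had a Spearman coefficient of -0.19, and across all genes -0.14, both descriptions of genes measured in the same libraries.

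Ribosomal proteins of the mitochondrion that carry other names were higher as well. Of 7 such genes 6 were higher, against 54.4% of all genes of like length. The median log2 ratio was 0.12, or 0.09 after the length adjustment. Gadd45gip1, a large subunit protein, stood at 24.2 RPKM with KXH and 20.6 with water, 1.17-fold higher (1.02 to 1.35). Dap3, the GTP-binding protein of the small subunit, stood at 25.9 and 23.3 RPKM with a ratio of 1.11 (0.997 to 1.24). Aurkaip1 had a ratio of 1.09 (0.968 to 1.24).

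Of 12 genes listed as translation factors, with Oxa1l and Mtfmt counted among them, 3 were higher (25%, against 45% of all genes). The other 9 were lower, and the median log2 ratio of the 12 was -0.08. The intervals of 10 of the 12 included 1. The exceptions were Tufm, which was lower, and Gfm1, 1.06-fold higher (1.01 to 1.11) at 86.3 against 81.4 RPKM. Tufm, the elongation factor that brings transfer RNA to the ribosome, was the most abundant at 197 against 213 RPKM, 1.08-fold lower (1.04 to 1.12). Tsfm, its exchange factor, had a ratio of 0.883 (0.773 to 1.01), the release factor Mtrf1l one of 0.833 (0.635 to 1.09) and the initiation factor Mtif3 one of 1.11 (0.913 to 1.35).

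Of the ribosome assembly and RNA-modifying enzymes 12 of 27 were higher (44.4%), a share close to the 45% of all genes, and the median was -0.04. Gtpbp10, a GTPase of large subunit assembly, stood at 9.73 against 6.69 RPKM (226 and 167 reads), 1.45-fold higher (1.18 to 1.79). Fastkd2, which binds the large ribosomal RNA, was 1.32-fold higher (1.14 to 1.53). The endonuclease Ybey was 1.47-fold lower (1.16 to 1.87) at 1.87 against 2.74 RPKM.

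Genes that copy and express mitochondrial DNA had a median of 0.02, with 12 of 20 higher (60.0%). Ssbp1, the single-strand binding protein of the mitochondrial genome, stood at 44.0 against 33.8 RPKM, 1.30-fold higher (1.09 to 1.55). Slirp, which stabilises mitochondrial messenger RNA with Lrpprc, was 1.22-fold higher (1.06 to 1.39), while Lrpprc itself had a ratio of 1.01 (0.980 to 1.05). The poly(A) polymerase Mtpap was 1.19-fold lower (1.04 to 1.35). Tfam, which packs the mitochondrial genome, and the RNA polymerase Polrmt had ratios of 0.942 (0.845 to 1.05) and 1.04 (0.941 to 1.14). Over all 66 measured genes of these lists, 33 were higher and 33 lower, while 46.9% of all genes of like length were higher. The 66 include the 7 ribosomal proteins with other names, of which 6 were higher. Genes of the translation factor, assembly and mitochondrial DNA lists are longer than the family's by median length. After the length adjustment the medians were -0.07 for translation factors, -0.02 for assembly enzymes and 0.05 for mitochondrial DNA expression. The last was as high as the family's 0.04.

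**Figure D4:**
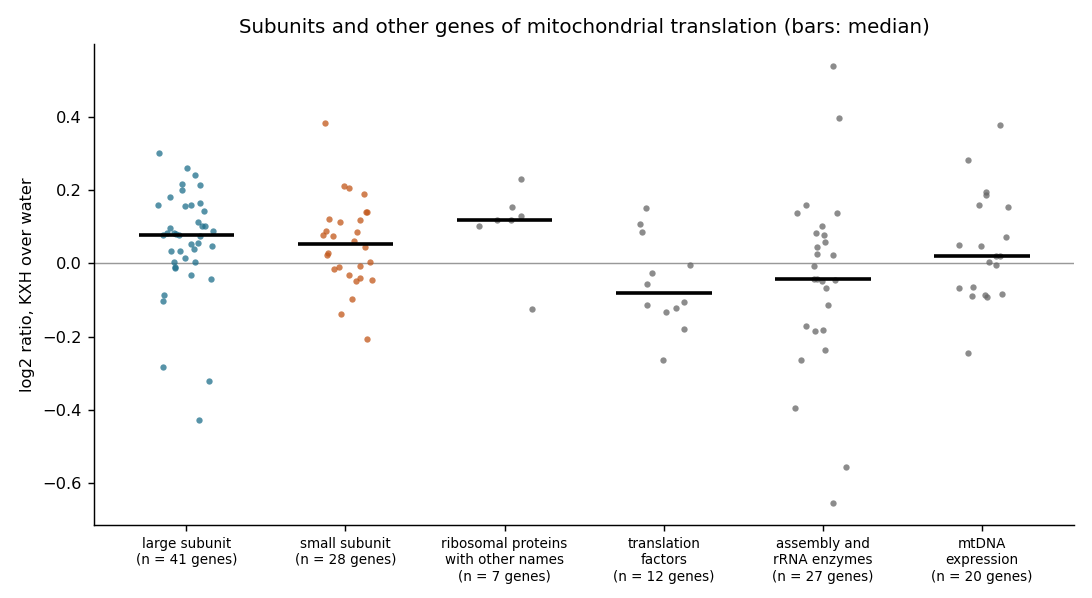
Log2 ratio of KXH over water for each gene of the large and small subunit, 7 ribosomal proteins with other names and 12 genes listed as translation factors. Also shown are 27 assembly and rRNA enzymes and 20 genes of the mitochondrial DNA expression list, which include Nrf1, Gabpa and Gabpb1. Black bars are medians. The bars of the ribosomal proteins lie at 0.08, 0.05 and 0.12, and those of the other lists at -0.08, -0.04 and 0.02.

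Other families of short genes were also more often higher than lower. Of 81 cytosolic ribosomal protein genes, 61 were higher (75.3%, against 58.8% of all genes of like length), with a median log2 ratio of 0.08. Of 33 complex I subunits, 24 were higher (72.7%, against 57.0%), with a median of 0.04. Above the median of their length class lay 54 of the 81 and 17 of the 33. Cytosolic ribosomal proteins are shorter, with a median listed length of 603 bases. After the length adjustment the medians were 0.04 for mitochondrial ribosomal proteins, 0.04 for cytosolic ribosomal proteins and 0.003 for complex I. Median levels were 204 RPKM for cytosolic ribosomal proteins and 291 RPKM for complex I in the KXH library, several times that of the family. With 1 library per group, differences between these sets were not tested.

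Many members have a neighbour that starts upstream of them and is read in the opposite direction. Whether such pairs share a promoter was not tested. A start on the other strand lay within 1000 bases upstream for 18 of 54 members (33.3%), against 16.7% of measured genes, by RefSeq starts of GRCr8. Mrpl46 and Mrps11 face each other 234 bases apart. Their ratios were 1.05 (0.888 to 1.25) and 0.968 (0.811 to 1.15), so no difference was detectable for either. Ndufb5, a complex I subunit 244 bases from Mrpl47, was 1.099-fold higher (1.05 to 1.15), while Mrpl47 had a ratio of 1.00. Klc4, a kinesin light chain gene 528 bases from Mrpl2, had a ratio of 0.896 (0.824 to 0.973), against 1.02 for Mrpl2. The proteasome subunit Psma2, 210 bases from Mrpl32, was 1.18-fold higher (1.07 to 1.30), against 1.08 for Mrpl32. These neighbours were named after their values were seen.

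In 14 pairings the neighbour was measured, with Mrpl46 and Mrps11 counted from each side. The neighbour lay on the same side of 1 as the member in 7 of them, and the median log2 ratio was 0.02 for neighbours and 0.08 for members. Most of these intervals include 1, and whether member and neighbour move together was not tested.

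The libraries differed in cell type markers beside these results. The protein-coding tables held 14.1 M reads (M, 1000000) for KXH and 15.1 M for water, and all marker genes listed had reads in both. Cardiomyocyte markers identified heart muscle, with 11 of 11 at 547 RPKM or more and summed levels of 45097 and 41682 RPKM, 8 of 11 being higher. Endothelial markers were lower in 10 of 10 (542 against 609 RPKM summed), smooth muscle and pericyte markers in 9 of 9 (293 against 343) and erythroid markers in 7 of 7 (2275 against 3344). Hbb alone gave 2234 and 3283 RPKM of the erythroid sums. Few reads lay on Cnn1 (8 and 22) and Hba2 (5 and 8), and Ahsp had a ratio of 0.991. Fibroblast markers were higher in 8 of 9 (1012 against 909.9), and macrophage markers lower in 6 of 9 (284 against 297). Beside these counts, 45% of all genes were higher. Among all genes of like length it was 48.6% for cardiomyocyte, 39.0% for endothelial and 39.6% for smooth muscle and pericyte markers. For fibroblast, erythroid and macrophage markers it was 40.6%, 50.4% and 46.3%. The summed levels were not adjusted for length. The part of these differences in the family's shift was not tested, and fewer cells of a type and less RNA per cell cannot be told apart in such tissue.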

How the data were processed

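Total RNA of myocardium was sequenced in 2 libraries, 1 per group, grouped by the agent in the labels. The authors deposited a whole read count per gene, described as unique in the file headers, and an RPKM value, which equals the count per kilobase of listed length per 1000000 reads of that table. The submitters' processing notes name Bowtie 0.12.2 and the rn6 build without saying for which step. Annotation, counting program and strand setting: not given in the sources used here. The lncRNA tables were not used.

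Ratios are of the deposited RPKM values with nothing added, over genes whose mean level reached 1 RPKM. Intervals are Clopper-Pearson, from the KXH share of each gene's reads. They cover counting error only, since reads lack molecular identifiers and several may come from 1 molecule. Length adjustment subtracts the median log2 ratio of all genes in the same of 10 equal classes of listed length.

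The members and lists were chosen with earlier results of these data known. Named members are the 8 highest and 8 lowest with at least 200 reads and the 5 most and 5 least abundant. A fixed set of known place was named too. Partners are the 3 farthest from 1 per list and 5 fixed genes. Gfm1 was added for its interval, and Nrf1, Gabpa, Gabpb1, Oxa1l and Mtfmt to show what the lists hold. Alternatives were other pseudocounts, filters, scalings, folds, intervals, length classes and groupings. The steps were tested on simulated data. Promoters come from RefSeq (GRCr8). Values were computed in Python 3.11.15 with scipy 1.17.1, pandas 2.3.3 and numpy 2.4.6, and drawn with matplotlib 3.10.9.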

Additional observations from a re-analysis of the deposited data

How the results depend on the processing

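With 1 library per group, no value here has a replicate check. No paired analysis was possible because each group has 1 library. The median log2 ratio of all members stayed above 0 under the 11 alternatives tried for it, from 0.06 to 0.10. It was 0.10 with trimmed-mean scaling (0.095), centring on the median of all genes (0.097) and median-of-ratios scaling (0.098), and 0.055 as a mean over members. These 3 scalings shift every log2 ratio by 0.02 and put 55 of 69 members above 1. The length-adjusted median ranged from 0.03, with classes of both length and level (added after the data were seen), to 0.06 over 14 alternatives. The difference of large minus small ranged from 0.004 to 0.03 before and from 0.006 to 0.03 after length adjustment. The count of members past the fold was 18 higher and 5 lower at 1.1-fold, and 0 and 0 at 1.5-fold. It was 4 higher with centring and with median-of-ratios scaling, and 1 lower among members with at least 200 reads. Counting intervals of 99% gave 4 above and 1 below. The shares of all genes under these alternative folds, scalings, filters and intervals were not computed. The median of the 66 genes of the partner lists, which include the 7 ribosomal proteins with other names, was -0.0002. It changed sign to 0.00018 with a pseudocount of 1 RPKM, 0.019 at a mean of at least 5 RPKM and 0.011 with at least 200 reads. Under the 3 scalings in the order above it was 0.020, 0.021 and 0.023.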
